A study of Mus musculus with 8 samples.

Results

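The tripartite motif (TRIM) family was examined in IEC10 cells stimulated with a type I or a type III interferon. All 89 non-control probes whose array name starts with Trim and a digit were taken as members, out of 39429 probes on the array, and they stand for 62 of 31791 gene names. IEC10 is an immortalized intestinal epithelial cell line from a mouse that carries an Mx2-luciferase transgene, so every group of the study shares that background. The cells were kept on transwell inserts for 21 days, which allows them to polarize, and were then left untreated or stimulated for 9 h. The control group has 2 arrays (replicates 2 and 3), the group given IFN-λ2 at 20 ng/mL has 3, and the group given IFN-β at 500 U/mL has 3. The groups rest on this single line, and the labels do not say whether arrays of 1 group came from separate cultures, so that p-values measure the spread between these arrays.

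TRIM proteins carry a RING domain, B-boxes and a coiled coil at the N-terminus, and most of them act as E3 ubiquitin ligases. The C-terminal part differs between members and is thought to select the target. Several members with a SPRY domain restrict viruses or tune the sensing of viral RNA, and a number of them are themselves interferon-stimulated genes. Type I interferons signal through IFNAR and type III interferons through the IFN-λ receptor of epithelial cells. Both activate ISGF3, a transcription factor complex that binds the interferon-stimulated response element (ISRE) in promoters.

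The ISRE core letters GAAANNGAAA were searched on both strands of the RefSeq promoter windows of GRCm38.p6, each covering 250 bases before and 50 after a transcript start. They occurred in 1131 of 32851 windows of all genes (3.44%) and in 9 of 61 windows of the members (14.8%). Of the 62 member genes, 47 had a window, matched by symbol, and 8 of these held the letters. The stretches are shown 5′ to 3′ along the gene, with the matched letters in capitals, because 5 of the 8 belong to genes that responded below. A match on the opposite strand shows the reverse complement of these letters. The first pair lies upstream of Trim30a and Trim30d on the minus strand, starting 36 and 41 bases before the transcript start, at chr7:104465194-104465274 and chr7:104507850-104507935 of GRCm38.p6.
Trim30a: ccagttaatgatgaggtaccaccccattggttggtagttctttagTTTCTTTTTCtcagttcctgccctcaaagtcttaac
Trim30d: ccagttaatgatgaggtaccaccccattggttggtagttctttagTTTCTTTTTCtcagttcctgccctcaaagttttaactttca

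The first 75 bases of both stretches are identical, and 80 of the 81 compared positions are. Trim12a, Trim21 and Trim34a hold the letters after the annotated start, so that only 30 bases are shown for each. They lie at chr7:104315466-104315495 (minus strand), chr7:102565450-102565479 (minus strand) and chr7:104244457-104244486 (plus strand) of GRCm38.p6. In Trim21 a pair of matches overlaps.
Trim12a: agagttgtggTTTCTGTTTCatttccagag
Trim21: cctctgagagGAAACTGAAAGTGAAAtttg
Trim34a: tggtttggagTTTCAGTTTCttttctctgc

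Trim5 and Trim26 are added, the one because it lies in the same run of genes and the other because it changed less. Trim5, a neighbour of Trim12a, has the letters 49 bases before its start at chr7:104288107-104288200 (minus strand), and the stretch holds all 30 bases shown for Trim12a. Trim26 has a pair of overlapping matches, the first of them 160 bases before its start, at chr17:36836941-36837046 (plus strand).
Trim5: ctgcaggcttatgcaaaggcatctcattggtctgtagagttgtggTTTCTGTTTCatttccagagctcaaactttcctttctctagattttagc
Trim26: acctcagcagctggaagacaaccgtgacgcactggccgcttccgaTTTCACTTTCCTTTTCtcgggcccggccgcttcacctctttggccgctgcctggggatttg

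The intensities are given in normalized gPS units, the background-subtracted signal scaled so that the 75th percentile of each array is 1500, with values under 15 set to 15. Of the 89 member probes, 60 were above 15 units on at least 2 arrays and were tested with limma among 25971 probes of all genes. A gene is represented by its probe with the highest mean signal. It is called responding where that probe changed at least 2-fold against control after either cytokine with an adjusted p under 0.05. By this rule 11 of the 62 genes responded, 8 were called with a change under 2-fold, 25 were detected without a call and 18 were not tested.

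After IFN-λ2, 13 of the 60 tested member probes (21.7%, from 11 genes) rose at least 2-fold, beside 2.67% of all tested probes, and 0 fell, beside 1.19%. At any fold, 17 member probes were higher (28.3%, background 10%) and 6 were lower (10%, background 8.55%). Of the 13 up 2-fold, the probes of Trim15 and Trim6 and the dimmer one of Trim34 were at the floor on both control arrays. They entered the test through stimulated arrays alone, and with a floor of 50 or with normexp background correction 9 member probes rose 2-fold. After IFN-β, 10 member probes (16.7%, from 8 genes) rose at least 2-fold, beside 0.882% of all tested probes, and 0 fell, beside 0.0308%. The paper's methods give a 2-group analysis with both a p and a q threshold and name no test for it. A t-test was used for it here, called the methods' t-test below. After Benjamini-Hochberg adjustment it called 1 of these 10 probes, that of Trim21, and 9 were at the unadjusted p threshold of the methods, without their q threshold. The folds are the same in that test, and the adjusted p of the other 7 genes lay between 0.0506 and 0.109. Of the member probes, 0 fell 2-fold in limma at an unadjusted p under 0.05, and 0 by the methods' t-test, after either cytokine. At any fold, 11 were higher (18.3%, background 1.44%) and 1 was lower (1.67%, background 0.208%). The median log2 change of the 60 probes was 0.11 for IFN-λ2 and -0.001 for IFN-β against control, beside 0.001 and 0.016 for all tested probes. The rise was thus that of a subset of the family.

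**Figure D1:**
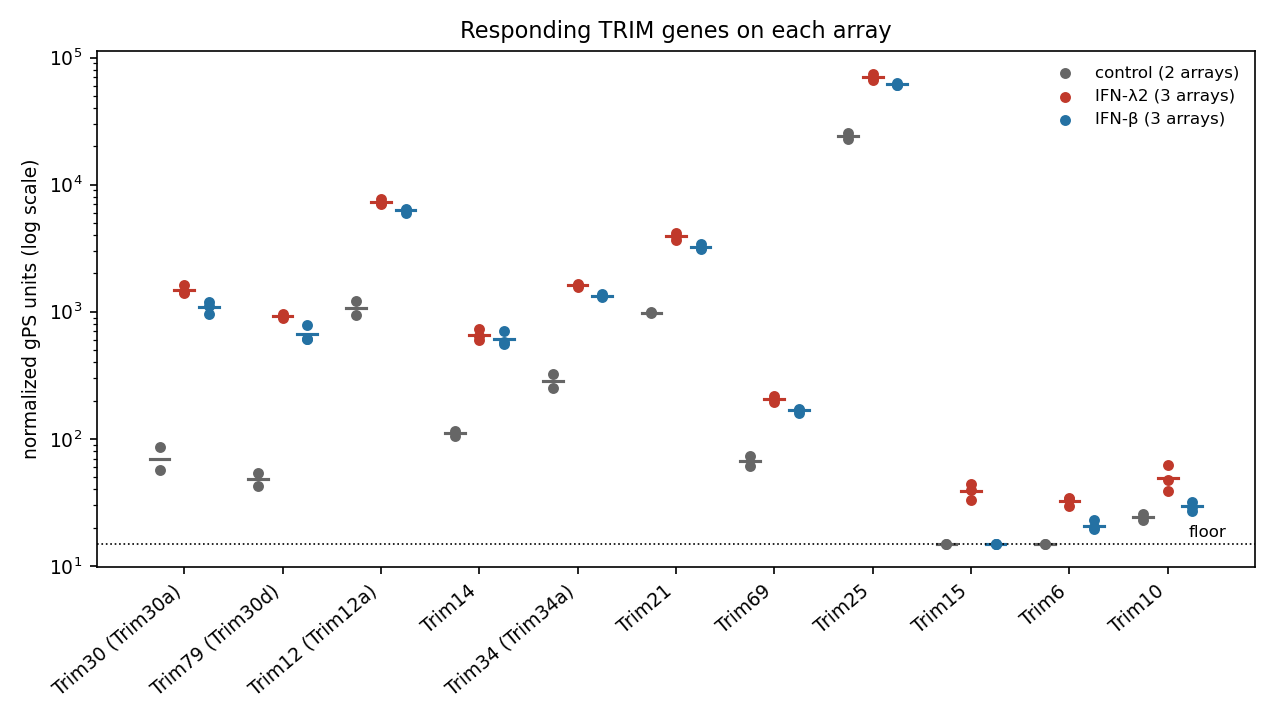
Normalized gPS units (log axis) of the 11 responding TRIM genes on each array, with points for single arrays, bars for the geometric mean of a group and a dotted line at the floor of 15 units. Trim30 rose from 85.9 and 57.1 units on the control arrays to at least 968 units on every stimulated array, whereas Trim15 left the floor on the 3 IFN-λ2 arrays only.

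Trim30, now named Trim30a, changed most among the members. The mouse protein is known as a negative regulator of Toll-like receptor signalling. Its probe (chr7:111557578-111557637, mm9) gave 85.9 and 57.1 units on the control arrays, 1438, 1403 and 1625 units after IFN-λ2, and 968, 1111 and 1193 units after IFN-β. Every stimulated array was above both control arrays. The log2 change was 4.41 ± 0.18 (SE; 21.2-fold, adjusted p = 1.58e-05, limma) after IFN-λ2 and 3.96 ± 0.18 (15.5-fold, adjusted p = 3.72e-05) after IFN-β. With normexp background correction, which models the background in place of subtracting it, the log2 changes were 3.61 and 3.20.

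Trim79, now Trim30d, is a paralogue of Trim30a, and its probe lies at chr7:111620805-111620864 (mm9). It gave 54.1 and 43 units in control cells, 889, 926 and 955 units after IFN-λ2, and 781, 615 and 607 units after IFN-β. The groups did not overlap. The log2 change was 4.26 ± 0.14 (19.2-fold, adjusted p = 5.8e-06, limma) after IFN-λ2 and 3.78 ± 0.14 (13.8-fold, adjusted p = 1.61e-05) after IFN-β. With normexp these were 3.19 and 2.69.

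Trim12, now Trim12a, belongs to the rodent relatives of TRIM5, the restriction factor for retroviral capsids. It has 2 probes, and the brighter one (chr7:111448499-111448558, mm9) gave 1224 and 942 units in control cells. It gave 7738, 6990 and 7205 units after IFN-λ2 and 6000, 6480 and 6324 units after IFN-β. Both stimulated groups lay clear of the control arrays, with log2 changes of 2.77 ± 0.12 (adjusted p = 1.89e-05, limma) and 2.54 ± 0.12 (adjusted p = 3.99e-05). The second probe moved alike, by 2.60 ± 0.13 and 2.33 ± 0.13.

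Trim34, now Trim34a, is another SPRY member of the same neighbourhood. Its brighter probe (chr7:111410513-111410572, mm9) gave 323 and 252 units in control cells, 1637, 1575 and 1640 units after IFN-λ2 and 1306, 1387 and 1321 units after IFN-β. The log2 change was 2.50 ± 0.11 (5.68-fold, adjusted p = 2e-05, limma) after IFN-λ2 and 2.23 ± 0.11 (4.7-fold, adjusted p = 4.83e-05) after IFN-β. The second probe was at the floor on both control arrays and between 36.1 and 63.9 units on the 6 stimulated arrays. It was therefore at least 2.93-fold higher after IFN-λ2 (adjusted p = 0.00321, limma) and at least 2.73-fold higher after IFN-β (adjusted p = 0.0172). This probe entered the test through the stimulated arrays alone and its control values have no spread, so these p-values add no support. Here a bound compares the bright group with the lowest signal that the arrays of the dim group measured well above background. The adjusted p of this dim probe after IFN-β rose to between 0.0547 and 0.107 without control replicate 2 or 3 or IFN-β replicate 1 or 2.

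Trim14 lacks a RING domain and is known as a mitochondrial adaptor of the RIG-I pathway. Its brighter probe (chr4:46517951-46517993, mm9) gave 116 and 106 units in control cells, 645, 730 and 604 units after IFN-λ2 and 707, 557 and 573 units after IFN-β. The log2 change was 2.57 ± 0.13 (adjusted p = 4.65e-05, limma) after IFN-λ2 and 2.46 ± 0.13 (adjusted p = 8.1e-05) after IFN-β. The other Trim14 probe stayed between 15 and 22.1 units on all 8 arrays and was not called, so the probes of this gene disagree. The log2 changes of that dim probe were 0.26 ± 0.19 and 0.30 ± 0.19, and averaging both probes lowers the change after IFN-β to 1.38, with a like drop after IFN-λ2.

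Trim21, also known as Ro52, is a cytosolic Fc receptor and E3 ligase that directs antibody-bound virus to degradation. Its probe (chr7:109706478-109706537, mm9) gave 991 and 978 units in control cells, 3950, 3685 and 4127 units after IFN-λ2 and 3094, 3161 and 3392 units after IFN-β. All 3 groups were separate from each other. The log2 change was 1.99 ± 0.08 (3.98-fold, adjusted p = 1.33e-05, limma) after IFN-λ2 and 1.71 ± 0.08 (3.26-fold, adjusted p = 3.84e-05) after IFN-β.

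Trim25 is the E3 ligase that ubiquitinates RIG-I and also conjugates ISG15. Its probe (chr11:88881521-88881580, mm9) gave 25424 and 22882 units in control cells, 73890, 69427 and 66530 units after IFN-λ2 and 61094, 63107 and 60575 units after IFN-β. It thus rose from a clear signal in unstimulated cells, by 1.53 ± 0.08 (adjusted p = 4.92e-05, limma) and 1.35 ± 0.08 (adjusted p = 0.000134) on the log2 scale.

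Trim69 has been described as an inhibitor of rhabdovirus and flavivirus replication. Its probe (chr2:122004642-122004701, mm9) gave 61.6 and 73.2 units in control cells, 194, 217 and 206 units after IFN-λ2 and 160, 173 and 169 units after IFN-β. The log2 change was 1.61 ± 0.10 (adjusted p = 0.000101, limma) after IFN-λ2 and 1.32 ± 0.10 (adjusted p = 0.00047) after IFN-β. With normexp the latter was 0.77 and so below 2-fold.

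The other 3 responding genes were called after IFN-λ2 alone, all were dim, and 8 of the 11 responded with a floor of 50 units. Trim15 (chr17:36997790-36997849, mm9), a SPRY member of the major histocompatibility complex region, was at the floor on both control arrays and on all 3 IFN-β arrays. After IFN-λ2 it gave 33.3, 44.4 and 39.3 units, each well above background. It was at least 2.19-fold higher than control (adjusted p = 0.000531, limma) and at least 1.86-fold higher than after IFN-β (adjusted p = 0.000711). The probe entered the test through the IFN-λ2 arrays alone, and the groups at the floor have no spread, so these p-values do not add support to the values themselves. By the methods' t-test the adjusted p against control was 0.05, and with normexp the log2 differences were 0.76 from control and 0.93 from IFN-β, both below 2-fold.

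Trim6, an E3 ligase that makes unanchored ubiquitin chains in interferon signalling, has 3 probes, of which 2 were at the floor on all arrays. The third (chr7:111382909-111382968, mm9) was at the floor in control cells, at 34.3, 29.4 and 33.6 units after IFN-λ2 and at 20.2, 22.9 and 19.4 units after IFN-β. Only 2 IFN-λ2 arrays measured it well above background. It was at least 1.83-fold higher than control (adjusted p = 0.000701, limma) and also higher than after IFN-β (adjusted p = 0.00673), so that its place past 2-fold rests on the value of the floor. It entered the test through the stimulated arrays alone, and the control arrays have no spread, so the p-value against control adds no support. With normexp the log2 differences were 0.62 from control and 0.60 from IFN-β, and neither was called (adjusted p = 0.0937 and 0.0921, limma). Without a floor it was also called after IFN-β, with a log2 change of 0.87 (adjusted p = 0.0259, limma).

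Trim10, a gene known from erythroid cells, gave 22.8 and 25.8 units in control cells, 47.2, 39.2 and 62.8 units after IFN-λ2 and 27.3, 32.1 and 29.3 units after IFN-β (chr17:37014159-37014218, mm9). It was well above background on 1 control, 2 IFN-λ2 and 2 IFN-β arrays. The change after IFN-λ2 was 1.01 ± 0.19 on the log2 scale (adjusted p = 0.0135, limma). Without control replicate 2 or 3 the log2 change was 0.92 or 1.1 and the adjusted p 0.0721 or 0.0503, with a single control array that is assumed to vary like the other groups. By the methods' t-test the adjusted p was 0.136, and with normexp the log2 change was 0.59 (adjusted p = 0.0892).

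**Figure D2:**
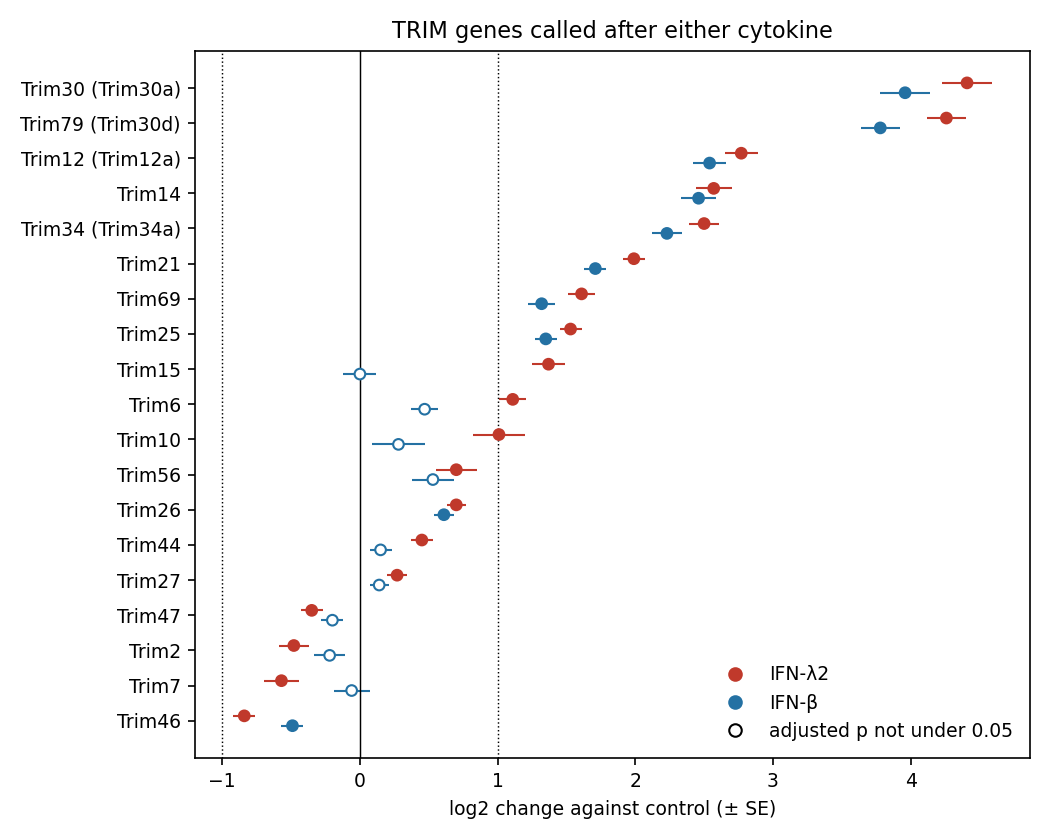
Log2 change against control (± SE from limma) of the 19 TRIM genes called after either cytokine, with filled points for an adjusted p under 0.05 and dotted lines at 2-fold. The 8 genes responding to both cytokines sit right of 2-fold in both colours, while Trim15, Trim6 and Trim10 pass it after IFN-λ2 only.

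Among the 8 genes called with a change under 2-fold, Trim26, Trim56, Trim44 and Trim27 were higher after IFN-λ2. Trim26, which turns over nuclear IRF3, gave 6443 and 6302 units in control cells, 10607, 9943 and 10552 units after IFN-λ2 and 9201, 9948 and 10096 units after IFN-β. Its log2 change was 0.70 ± 0.07 (adjusted p = 0.00122, limma) and 0.61 ± 0.07 (adjusted p = 0.00772). With the replicate number as a block in the fit, the adjusted p after IFN-β was 0.067, and without control replicate 3 it was 0.0589. Trim56, an antiviral E3 ligase without a C-terminal domain, rose by 0.70 ± 0.15 after IFN-λ2 (adjusted p = 0.0214, limma). After IFN-β it gave 5482, 4117 and 3908 units beside 2987 and 3162 units in control cells, a log2 difference of 0.53 ± 0.15 that was not called (adjusted p = 0.212).

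Trim44, which lacks a RING domain, rose by 0.45 ± 0.08 after IFN-λ2 (adjusted p = 0.0125, limma), and Trim27, a nuclear ligase, by 0.27 ± 0.07 (adjusted p = 0.0347; 0.0559 with the block). The Trim56 call was lost without any 1 of control replicate 2, control replicate 3, IFN-λ2 replicate 1 or IFN-λ2 replicate 2 (adjusted p between 0.0506 and 0.094), and the Trim44 call without control replicate 3 (0.0683).

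Trim46, which organizes microtubules in the axon, was lower after both cytokines. It gave 2175 and 1952 units in control cells, 1188, 1107 and 1153 units after IFN-λ2 and 1428, 1438 and 1534 units after IFN-β, so that the 3 groups were separate. It fell by 0.84 ± 0.08 on the log2 scale (adjusted p = 0.000786, limma) after IFN-λ2 and by 0.49 ± 0.08 (adjusted p = 0.0336) after IFN-β. The second call was lost with the block (adjusted p = 0.177) and without any 1 of the 8 arrays (0.0583 to 0.154), whereas the first held in these fits.

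Trim2, Trim7 and Trim47 were lower after IFN-λ2 by 0.48 ± 0.11, 0.57 ± 0.13 and 0.35 ± 0.08 on the log2 scale (adjusted p = 0.0243, 0.0283 and 0.0221, limma), with log2 changes of -0.22, -0.06 and -0.20 after IFN-β that were not called. Trim7 encodes a ligase that binds glycogenin. Both of its probes were called, and both missed the threshold with the block (0.0528 and 0.066), as did Trim47 (0.056). Trim2 and Trim3, NHL members known from neurons, each had 1 probe called and 1 not. The called Trim3 probe fell by 0.45 ± 0.09 (adjusted p = 0.0135, limma), while the brighter probe had a log2 change of -0.36 ± 0.12 (adjusted p = 0.0876). With the block, 3 of the 60 member probes rather than 6 were lower after IFN-λ2, and 0 rather than 1 after IFN-β. Leaving out 1 array lost the calls of Trim2, Trim3, Trim7, Trim27 and Trim47 for at least 1 choice of array, with control replicate 3 among them for each. The Trim27 call was lost without either control array, any IFN-λ2 array, or IFN-β replicate 2 or 3. That of the brighter Trim7 probe was lost without either control array, IFN-λ2 replicate 1 or 2, or IFN-β replicate 3. The Trim2 call was lost without either control array or IFN-λ2 replicate 2 or 3.

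Both cytokines were then compared directly. IFN-λ2 gave higher values than IFN-β for each of the 8 genes that responded to both, by 0.11 to 0.48 on the log2 scale, and in 7 of the 8, all but Trim14, every IFN-λ2 array was above every IFN-β array. Such a separation was found for 16% of all tested probes. The largest of these differences were those of Trim79 (0.48 ± 0.13, adjusted p = 0.061, limma) and Trim30 (0.45 ± 0.16, adjusted p = 0.138), neither of them called. That of Trim21 was (0.29 ± 0.07, adjusted p = 0.0466), and with the block its adjusted p was 0.0792. Without any 1 of the 8 arrays the Trim21 call was lost as well (adjusted p between 0.0563 and 0.149). Other settings gained calls. The difference of Trim79 passed with a variance trend, with the filter on probes well above background, with a floor of 50, in the deposited table and without IFN-β replicate 1 (adjusted p between 0.0183 and 0.0496). That of Trim34 (0.27) passed without control replicate 2 or 3, with only both groups in the fit and by the methods' t-test (0.0303 to 0.042).

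Over the 60 member probes, 4 were higher after IFN-λ2 than after IFN-β (6.67%, background 5.53%), from Trim6, Trim10, Trim15 and Trim21, and 4 were lower (6.67%, background 5.68%), from Trim3, Trim7 and Trim46. These shares are near the background. At 2-fold, 1 probe was higher (1.67%, background 1.44%), that of Trim15, and 0 were lower (background 0.774%). With its bound of at least 1.86-fold, this place past 2-fold rests on the value of the floor, and 0 probes passed with a floor of 50 or with normexp. With the block, 2 were higher and 1 was lower. The difference of Trim10 (0.73 ± 0.17, adjusted p = 0.0399) was among those lost (0.0678). It was also lost without any 1 of 7 arrays, all but IFN-λ2 replicate 2 (0.0553 to 0.112), with no filter (0.105), with normexp (0.0767), with only both groups in the fit (0.0631) and by the methods' t-test (0.14). Without IFN-λ2 replicate 1, 2 probes were higher and 0 lower, and without IFN-β replicate 3, 2 were higher and 1 lower. The 2 doses are in different units. The paper reports that both doses induced Mx2, an interferon-stimulated gene, to a level below but close to its maximum, and the comparison holds for these doses.

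The members were then placed along the chromosomes. Joining members whose probes lie within 500000 bases of each other on mm9 gave a cluster of 6 array names at chr7:111376674-111620864, namely Trim6, Trim34, Trim5, Trim12, Trim30 and Trim79. Of its 10 member probes 7 were tested. All 7 were responding, and they come from 5 of the 6 genes. The Trim6 probe and the dimmer Trim34 probe among them were at the floor on both control arrays and entered the test through the stimulated arrays alone. The untested member probes stayed at or near the floor, so the filter sets part of this share. Trim5 was at 15 units on 7 arrays and at 15.6 units on the array of IFN-β replicate 2, and was not tested although its promoter shares its ISRE core and flanking bases with Trim12a.

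Some probes that the array names otherwise but that RefSeq assigns to TRIM genes lie in the same interval. The 3 probes of 9230105E10Rik, now Trim12c, rose by 2.53, 3.35 and 2.54 on the log2 scale after IFN-λ2 and by 2.49, 3.01 and 2.41 after IFN-β (adjusted p at most 0.000694, limma). The probes of Trim30b and Trim30c were at the floor on all 8 arrays, as were those of Trim30e-ps1, beyond the interval on chromosome 7, and of Trim80 on chromosome 11. Of 4 other probes in the interval 2 were tested, and both responded. The genes of this cluster are close paralogues, and how far 1 transcript binds the probe of another was not tested.

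**Figure D3:**
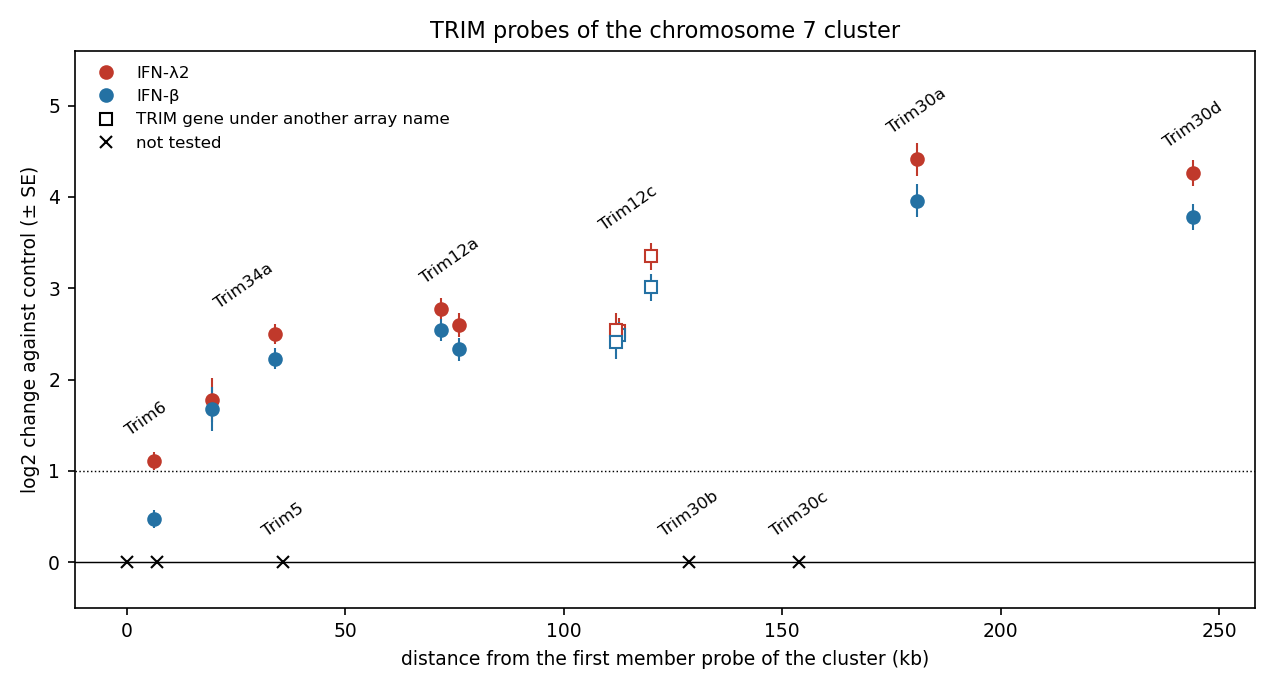
Log2 change against control (± SE) of the probes of the chromosome 7 cluster by distance from its first member probe in kb, with squares for TRIM genes under another array name, crosses for probes not tested and current gene symbols as labels. The changes run from Trim6 near 2-fold to Trim30a and Trim30d above 4 on the log2 scale after IFN-λ2, with Trim5, Trim30b and Trim30c not tested in between.

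Elsewhere on chromosome 7, at chr7:109706478-109826406, Trim21 responded while its neighbour Trim68 gave a log2 change of -0.19 ± 0.15 after IFN-λ2 and 0.01 after IFN-β. The cluster at chr17:36996236-37047104, within the major histocompatibility complex, holds Trim26, Trim15, Trim10, Trim40 and Trim31. Of these, Trim15 and Trim10 responded to IFN-λ2, Trim26 was called under 2-fold, Trim40 lay between 15 and 19.0 units in the means of the 3 groups and Trim31 was at the floor on all arrays. In the clusters of chromosome 11 (Trim41 with Trim7, Trim58 with Trim17 and Trim11, Trim47 with Trim65), chromosome 8 (Trim75, Trim60 and Trim61) and chromosome 9 (Trim43b and Trim43c) 0 genes responded.

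The members were also grouped by the C-terminal domain they are known for. All 11 responding genes carry a SPRY domain, out of 37 members with one, of which 26 were tested. None of the 18 tested genes without SPRY responded. Of all tested probes, 2.67% rose and 1.19% fell 2-fold after IFN-λ2, and 0.882% rose and 0.0308% fell after IFN-β, so that none of 18 is near these shares. The genes without SPRY include the PHD and bromodomain members Trim24, Trim28 and Trim33, which act on chromatin, and the NHL members Trim2, Trim3, Trim32 and Trim71. Without control replicate 2, 10 of 11 responding genes carried SPRY, as Trim52 was then called lower and Trim10 was not called. At 1.5-fold in place of 2-fold 14 genes responded, among them Trim56, which lacks the domain. The median log2 change after IFN-λ2 was 0.29 for the tested genes with SPRY and -0.10 for those without. The SPRY members include the paralogues of the chromosome 7 cluster, so they are not independent of each other.

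**Figure D4:**
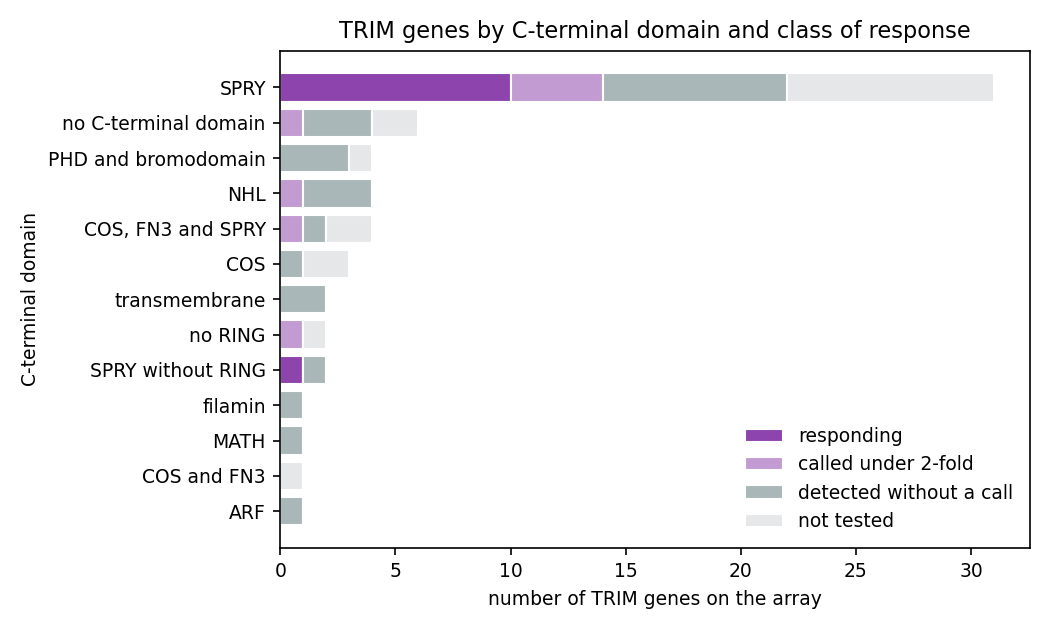
Number of TRIM genes on the array by C-terminal domain, divided by class of response. Responding genes are found in the SPRY bar (10 of 31) and as Trim14 among the SPRY members without RING (1 of 2).

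Of the 10 responding genes with a promoter window, 5 held GAAANNGAAA (Trim12a, Trim21, Trim30a, Trim34a and Trim30d). The letters are not in the windows of Trim6, Trim10, Trim15, Trim25 and Trim69. Among the 37 genes with a window that did not respond, 3 held them, namely Trim26, Trim2 and Trim5. After IFN-λ2, Trim26 was called higher (log2 change 0.70) and Trim2 lower (-0.48), both under 2-fold, and Trim5 was not tested. The Trim2 match, whose stretch is not shown, starts 28 bases after a transcript start, and the other Trim2 windows do not hold the letters. The letters TTCNNNGAA of the gamma-activated site, which were found in 2726 of all windows (8.3%), occurred in 1 of the 10 responding genes.

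A large part of the family had no call or lay at the floor in these cells. Of the 25 genes detected without a call, 20 were well above background on all 8 arrays, with log2 changes between -0.36 and 0.30 after IFN-λ2 and between -0.20 and 0.14 after IFN-β (SE 0.07 to 0.27). The 5 with the highest signal were Trim41, Trim59, Trim28, Trim35 and Trim11. Trim28, the corepressor KAP1, gave 17802 and 22269 units in control cells, 19092, 21124 and 19663 units after IFN-λ2 and 21640, 21085 and 19539 units after IFN-β. These ranges overlap, and the log2 change was 0.00 ± 0.11 after IFN-λ2 and 0.06 after IFN-β. Trim41, a nuclear and cytoplasmic ligase, changed by 0.15 ± 0.10 and 0.10, and Trim35 by 0.15 ± 0.11 and -0.02. Trim59 and Trim11 lay at -0.19 ± 0.08 and -0.22 ± 0.07 after IFN-λ2 (adjusted p = 0.151 and 0.0727, limma), and at -0.02 and 0.01 after IFN-β.

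The 18 genes without a tested probe were Trim5, Trim9, Trim17, Trim29, Trim31, Trim38, Trim42, Trim50, Trim54, Trim55, Trim58, Trim60, Trim61, Trim62, Trim66, Trim67, Trim72 and Trim75. They include the muscle genes Trim54, Trim55 and Trim72, the neuronal genes Trim9 and Trim67, and Trim31, known from the intestine. Of their 23 probes, 21 were at the floor on all 8 arrays in all 3 groups, and 1 was well above background on any array. Apart from a Trim55 probe on 1 IFN-λ2 array (16.5 units), these probes were not well above background, so that a change below the floor could not be seen. Probes disagreed for Trim43c, where 1 probe lay between 568 and 699 units on all arrays and the other 2 at the floor, and for Trim43b and Trim71, each with a dim tested probe without a call and another that was not tested. For Trim52 a single control array, replicate 3, gave 64.8 units, with the other control array at 15 and all stimulated arrays between 15 and 16.2 units, and it was not called.

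Genes that work beside the family were listed for comparison. Of 7 tripartite motif genes with other names, 3 were tested, and Pml, the scaffold of nuclear bodies also known as TRIM19, rose by 0.84 ± 0.06 after IFN-λ2 (adjusted p = 0.000317, limma) and 0.87 ± 0.06 after IFN-β (adjusted p = 0.000479). Mid1 rose by 0.61 ± 0.09 after IFN-λ2 (adjusted p = 0.00391, limma), and its change of 0.31 ± 0.09 after IFN-β was not called (adjusted p = 0.19). Mid2 went the other way, by -0.34 ± 0.13 and -0.40 ± 0.13, and was not called. Of 16 genes of RNA sensing and ISG15 conjugation, 9 rose at least 2-fold after each cytokine and 0 fell. By the methods' t-test after adjustment, 2 rather than 9 were called after IFN-β. Ddx58, which encodes the Trim25 substrate RIG-I, gave 2954 and 2391 units in control cells and at least 16466 units on every stimulated array (2.84 ± 0.11 after IFN-λ2 and 2.75 ± 0.11 after IFN-β). Isg15 rose by 3.75 ± 0.12 and 3.68 ± 0.12. The adaptor Mavs changed by 0.22 ± 0.09 and 0.06 ± 0.09 and was not called.

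Of 7 genes listed for ISGF3 and the interferon regulatory factors, 4 rose at least 2-fold after IFN-λ2 and 3 after IFN-β, and 0 fell. Stat2 rose by 2.16 ± 0.12 after IFN-λ2 and by 1.73 ± 0.12 after IFN-β. Irf9 rose by 1.99 ± 0.07 and 1.93 ± 0.07. Irf7 rose by 3.67 ± 0.11 and 3.85 ± 0.11.

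Each array measured between 20925 and 24250 probes well above background, and none was saturated. All 8 epithelial markers were well above background on all arrays. Of 6 enterocyte markers, 2 were, and Cdx2 was not on any array. Among 6 haematopoietic markers, Itgam gave between 2115 and 10736 units and the other 5 at most 189 units. The summed haematopoietic level lay between 6152 and 8635 units in control cells, 2385 and 3960 after IFN-λ2, and 2998 and 11057 on the IFN-β arrays, and its part in the results was not tested. None of the 28 markers, fibroblast and endothelial ones included, was called at 2-fold in any comparison. At any fold 5 were called after IFN-λ2 and 3 between the cytokines. After IFN-λ2, Cldn3 and Cldn4 fell by 0.63 and 0.54 on the log2 scale (adjusted p = 0.0104 and 0.0077, limma), and Cdh1, Krt19 and Fabp2 rose by 0.44, 0.41 and 0.65 (adjusted p = 0.0278, 0.0211 and 0.00263). In these bulk samples fewer cells of a type and less RNA per cell cannot be told apart. A slide carried arrays of a single replicate number, with a fixed place for every group, so place on the slide and treatment cannot be told apart. Within slide 2 and slide 3, Trim30 was higher by 4.03 and 4.83 on the log2 scale after IFN-λ2 and by 3.69 and 4.39 after IFN-β.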

How the data were processed

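RNA of 8 samples was hybridized to 1-colour Agilent arrays. The authors scanned the arrays and deposited the intensity of each feature (Agilent Feature Extraction 10.7.3.1), already background-subtracted and not scaled between arrays, and a table of normalized intensity per probe. The methods name the RNeasy Mini Kit and the labels Trizol. As in the methods, features that were flagged, outliers, outside 1.42 interquartile ranges of their on-chip copies or with a pixel coefficient of variation over 0.5 were left out (313 to 424 per array). Copies were averaged geometrically, the 75th percentile was set to 1500, values under 15 were set to 15, and log2 was taken. The 3 group means were estimated from 8 arrays together in limma 3.58.1 (R 4.3.3), with Benjamini-Hochberg adjustment over all 25971 probes above 15 on at least 2 arrays, at 0.05. Python 3.11.15, numpy 2.4.6, pandas 2.3.3 and matplotlib 3.10.9 made the tables and figures. The fit was tested on simulated data.

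Probe coordinates follow the scanner files (mm9); RefSeq tables of GRCm38.p6 gave current symbols (6 member probes had an older name) and promoters. The probe of Trim43c on the array of IFN-β replicate 3 with a missing value was not tested.

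Named are genes called at 2-fold in any comparison, the 10 other probes with the lowest adjusted p in each comparison, the 5 genes with the highest signal and no call, genes whose probes differ in class, and genes of the 3 comparison lists. Others are named as unmeasured, clustered or domain members. The members and lists were chosen with earlier results of these data known. One listed gene is not reported here and was left out of its count. Domain classes and roles are background.

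Replicate numbers stand for slides. Deviations of IFN-λ2 and IFN-β arrays with the same number correlated at 0.178, 0.255 and 0.297, and those with control arrays between -0.0568 and 0.101. Arrays with different numbers were not compared, so whether the numbers pair the arrays was not tested, and the main fit has no block for them. Fits with this block and the other alternatives are given in the closing section. The number of arrays, above all the 2 of control cells, limits precision.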

Additional observations from a re-analysis of the deposited data

How the results depend on the processing

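Counts of member probes and genes were recomputed under normexp background, quantile normalization, other floors and filters, the deposited table, all features kept, the replicate block, fewer arrays or groups, a variance trend and the methods' t-test. The 13 probes up 2-fold after IFN-λ2 and the 11 responding genes stayed within 1.5 times of these numbers, except that 19 genes responded with no fold threshold. The methods' t-test, after Benjamini-Hochberg adjustment, left 1 of the 10 probes up 2-fold after IFN-β at the same folds (9 at its unadjusted threshold), and 2 genes up in the RNA sensing list. Direct comparison of the cytokines at 2-fold went from 1 probe to 0 with a floor of 50 and with normexp, the probe being that of Trim15. Leaving out 1 array gave 0 to 1 probes down 2-fold after IFN-λ2 and 0 to 1 after IFN-β; the 1 is Trim52 without control replicate 2. With the replicate block, 3 probes rather than 6 were lower after IFN-λ2 at any fold, 0 rather than 1 after IFN-β, and 2 higher and 1 lower rather than 4 and 4 in the direct comparison. At any fold, 2 probes were lower after IFN-λ2 without control replicate 3 and 3 without IFN-λ2 replicate 1, and 2 with only both groups in the fit, 2 with normexp, 10 with quantile normalization and 1 by the methods' t-test, which gave 11 higher ones rather than 17 (10 and 0 at its unadjusted threshold). After IFN-β 0 rather than 1 was lower with normexp, with only both groups and by that test. In the direct comparison, normexp left 1 higher and 0 lower, as did the unadjusted t-test, and leaving out a stimulated array left 2 to 3 higher and 0 to 2 lower. The block changed no other call than those of Trim7, Trim10, Trim21, Trim26, Trim27, Trim46 and Trim47. With normexp Trim6 and Trim10 changed by 0.62 (adjusted p = 0.0937) and 0.59 (adjusted p = 0.0892) after IFN-λ2, and the median of all probes by 0.11. The cause of these changes was not tested. The chromosome 7 cluster held 6 genes at each joining distance.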
